A study of Homo sapiens with 8 samples.

Results

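The interaction of the compound 1035 with doxorubicin was measured in SupB15, an established line of human pre-B acute lymphoblastic leukemia cells that are positive for the Philadelphia chromosome, the source of the BCR-ABL1 fusion kinase. All 8 of the 8 libraries enter it, joined by gene identifier from the authors' count tables. Total RNA was sequenced in 4 groups of 2 libraries. The first group, DMSO, received the solvent for 46 h. The second, 1035, received 1035 at 2 µM for 46 h. The third, Doxo, received doxorubicin at 0.1 µM for 10 h. The fourth, 1035+Doxo, received 1035 at 2 µM for 36 h and then doxorubicin at 0.1 µM for 10 h. The series' design text calls the pair of samples in each group independent. The sources used here do not say whether 1035 was washed out before doxorubicin was added. An end of exposure to 1035, a shorter exposure to it, and the addition of doxorubicin to treated cells therefore cannot be told apart in the combination. Likewise the 46 h of DMSO and the 10 h of doxorubicin differ in length as well as in drug.

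The series' title calls 1035 an HDAC inhibitor, a drug that blocks the enzymes removing acetyl groups from histones and other proteins. Doxorubicin, an anthracycline, poisons topoisomerase II on DNA and leaves double-strand breaks. Breaks activate the kinase ATM, which stabilises the transcription factor p53 and can also reach the IκB kinase complex, which frees the transcription factor NF-kB from its inhibitor IκBα. NF-kB then switches on inflammatory and survival genes together with its own brakes, among them IκBα itself, the ubiquitin-editing enzyme A20 and the microRNA miR-146a.

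The interaction compares 2 responses to doxorubicin that share no library. It is the log2 fold change of 1035+Doxo against 1035 minus that of Doxo against DMSO. A value of 0 means that the effects of the drugs multiply, so that their log2 changes add; a positive value means a higher level in the combination than that sum gives. Levels are in CPM, read counts relative to library size, after TMM scaling, which removes differences in library composition. A gene was called at an FDR of 0.05, by the two-sided quasi-likelihood F-test of edgeR with Benjamini-Hochberg adjustment over all 16320 genes tested. Each value after ± is a standard error.

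Of all genes, 3 passed the test for a departure from the sum of the single effects, all upward. They were NFKBIA (ENSG00000100906), which encodes IκBα, TNFAIP3 (ENSG00000118503), which encodes A20, and the gene listed as MIR146A (ENSG00000253522). The reference gene tables name that identifier MIR3142HG, the host transcript from which miR-146a is cut, so its counts measure the host RNA and not the mature microRNA. The calls are 0.0184% of the genes tested, and 0 genes were called lower by edgeR, that is 0.0%. DESeq2 called 2 higher and 0 lower. At an unadjusted p under 0.05, edgeR had 349 genes higher (2.14%) and 437 lower (2.68%), together 4.82% of those tested, and DESeq2 82 and 135.

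The upstream sequences of the 3 genes are shown because each holds a match to the kappaB consensus, the sequence that NF-kB binds. They are from RefSeq on GRCh38.p14, cover the 250 bases before the annotated start, and are written 5′ to 3′ along the gene. Capitals mark the match. The positions are chr14:35404750-35404999 on the minus strand, chr6:137867009-137867258 on the plus strand and chr5:160468001-160468250 on the plus strand. The authors' reads were aligned to hg19, so these coordinates belong to the reference table alone.
NFKBIA: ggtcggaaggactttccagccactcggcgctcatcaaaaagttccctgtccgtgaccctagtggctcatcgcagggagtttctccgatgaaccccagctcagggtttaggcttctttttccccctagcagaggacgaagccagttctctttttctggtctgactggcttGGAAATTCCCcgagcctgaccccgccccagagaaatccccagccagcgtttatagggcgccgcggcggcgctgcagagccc
TNFAIP3: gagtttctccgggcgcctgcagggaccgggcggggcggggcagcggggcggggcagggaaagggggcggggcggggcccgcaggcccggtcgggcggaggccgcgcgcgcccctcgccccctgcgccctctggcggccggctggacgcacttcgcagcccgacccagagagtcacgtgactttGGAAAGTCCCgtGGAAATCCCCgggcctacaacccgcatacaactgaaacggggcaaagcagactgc
MIR3142HG: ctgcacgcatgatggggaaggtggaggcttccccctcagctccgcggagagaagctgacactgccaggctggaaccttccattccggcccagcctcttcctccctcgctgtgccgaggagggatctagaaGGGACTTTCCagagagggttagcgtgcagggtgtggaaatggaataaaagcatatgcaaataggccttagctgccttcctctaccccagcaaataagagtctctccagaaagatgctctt
The mature miR-146a-5p of RefSeq, at chr5:160485372-160485393 on the plus strand, is printed with its seed, bases 2 to 8, in capitals.
hsa-miR-146a-5p: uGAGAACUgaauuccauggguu

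Read along the consensus, TNFAIP3 and MIR3142HG held the same 10 letters, GGGACTTTCC, with the first base of the match at -67 and -120 from the start. NFKBIA held GGGAATTTCC at -81, and TNFAIP3 held GGGGATTTCC at -55 as well. The search covered both strands of 300 bases, 250 before and 50 after the start, and overlapping matches were allowed. The consensus was found in 3956 of 35116 RefSeq promoters (11.3%) and in 1219 of the 9499 promoters of genes tested here (12.8%). The letters GGGACTTTCC, picked after the 3 genes had been seen, were in 67 of all promoters (0.191%) and 21 of those tested (0.221%). A match describes the letters only.

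The levels of NFKBIA went in opposite directions with the single drugs. They were 98.5 and 96.2 CPM with DMSO, 67.8 and 71.6 with 1035, 131 and 124 with doxorubicin, and 149.94 and 143 with the combination. No group overlapped another: 1035 alone gave the lowest libraries and the combination the highest. NFKBIA fell by 0.48 on the log2 scale with 1035 and rose by 0.39 with doxorubicin, both called. After 1035, doxorubicin raised it by 1.07 ± 0.06, a fold of 2.10 against 1.31 without 1035. The sum of the single effects corresponds to 91.4 CPM, and 147 CPM was measured. The interaction was 0.68 ± 0.09 (95% interval 0.50 to 0.86, edgeR adjusted p = 4.26e-05), a fold of 1.60. With doxorubicin present, 1035 raised NFKBIA by 0.20 ± 0.06, where without doxorubicin it had lowered it.

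Neither drug alone gave a called change in TNFAIP3. Its levels were 173 and 177 CPM with DMSO, 192 and 185 with 1035, 202 and 200.35 with doxorubicin, and 302 and 327 with the combination. The combination libraries stood apart from the other 6, which lay within 173 to 202 CPM. The single changes were 0.11 on the log2 scale for 1035 (edgeR adjusted p = 0.131) and 0.21 for doxorubicin (edgeR adjusted p = 0.0720). After 1035, doxorubicin raised it by 0.74 ± 0.06. The sum of the single effects corresponds to 217 CPM against 314 CPM measured, and the interaction was 0.53 ± 0.08 (95% interval 0.36 to 0.70, edgeR adjusted p = 0.00112), a fold of 1.45. This call was lost without library 2 of DMSO (0.51, edgeR adjusted p = 0.0786) and without library 2 of the combination (0.47, edgeR adjusted p = 0.113).

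The host gene of miR-146a rose with 1035 and did not pass with doxorubicin. It was at 12.4 and 16.3 CPM with DMSO, 25.9 and 23.5 with 1035, 15.6 and 13.2 with doxorubicin, and 46.6 and 47.8 with the combination. The DMSO and doxorubicin libraries overlapped, and the combination libraries were the highest. Against DMSO, 1035 raised MIR146A by 0.79 ± 0.11, while the change with doxorubicin was 0.02 ± 0.12. After 1035, doxorubicin raised MIR146A by 0.93 ± 0.10. The sum of the single effects corresponds to 24.7 CPM against 47.2 measured, and the interaction was 0.91 ± 0.16 (95% interval 0.59 to 1.23, edgeR adjusted p = 0.00619), a fold of 1.88. This is the least stable of the 3 calls. DESeq2 gave MIR146A an adjusted p of 0.125, and edgeR lost the call without library 2 of DMSO (0.70, adjusted p = 0.577), without library 2 of 1035 (0.85, adjusted p = 0.0578) and without either library of the combination (0.93 and 0.90, adjusted p = 0.173 and 0.197). Known targets of miR-146a, picked after their values were seen, had interactions near 0. They were -0.02 for the adaptor TRAF6 and -0.01 for the kinase IRAK1, both of which carry signals to NF-kB. Both changed with 1035 itself, with all changes called. IRAK1 fell by 0.94 without and 0.95 with doxorubicin, and TRAF6 rose by 0.31 and 0.29.

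TNFAIP3 and MIR146A were more than additive: the sum of their single effects was itself called higher than DMSO, as for 15.6% of all genes (33.1% in either direction), and the combination went further. For NFKBIA the sum of a lowering and a raising effect was -0.09 and not called. By edgeR 0 genes were less than additive, that is, called against the direction of a called sum by no more than its size, and 0 were opposed, that is, called against it by more. The sum and the interaction share libraries, so these forms are a description. The count of 2 more than additive became 0 without either library of DMSO or library 2 of the combination, 1 without library 2 of 1035 or library 1 of the combination, and 9 without library 1 of Doxo. That last omission also gave 182 less than additive and 23 opposed, and opposed genes numbered 3 without library 1 of 1035 and 1 without library 2 of the combination.

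**Figure D1:**
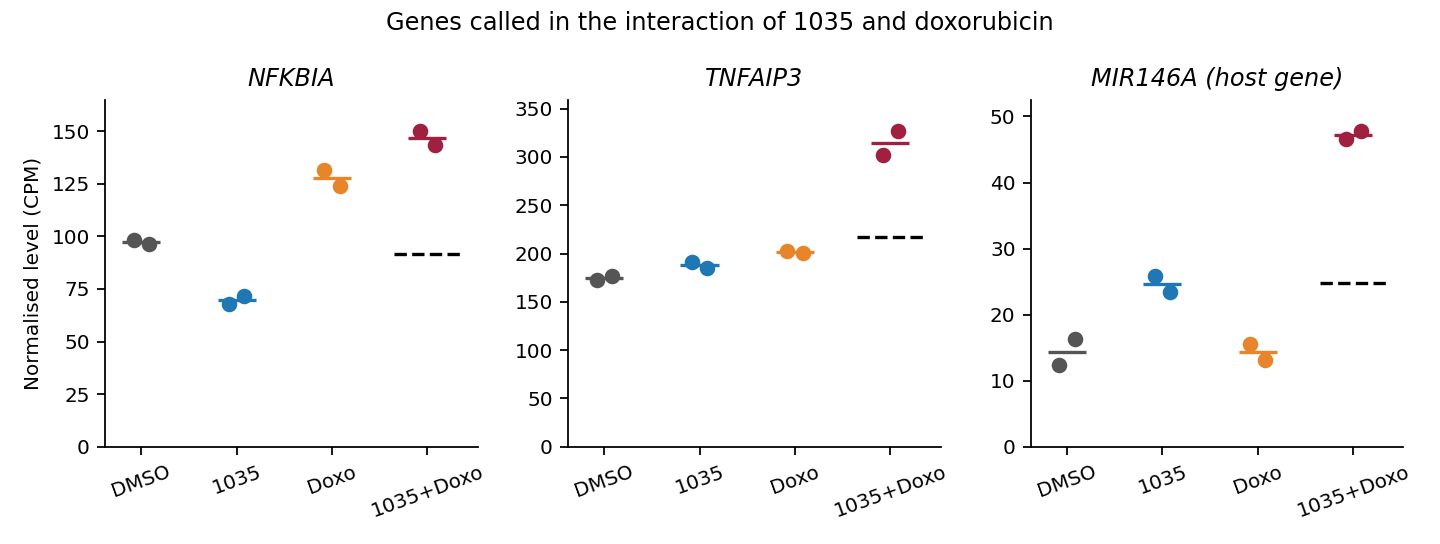
Levels of NFKBIA, TNFAIP3 and the gene listed as MIR146A in CPM (vertical axis) in the 4 groups (horizontal axis). Points are libraries, solid lines group means and the dashed line the level given by the sum of the single log2 effects. In each panel both combination libraries lie above the dashed line, at 91.4, 217 and 24.7 CPM. The genes were called for that departure in the same libraries.

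Among NF-kB targets, more genes passed the test for doxorubicin after 1035 than without it. Of the 21 members tested of 28, 13 rose in 1035+Doxo against 1035, where 57 of all genes tested (0.349%) rose. In Doxo against DMSO 6 of the 21 rose, where 128 of all genes (0.784%) did, and all 6 were among the 13. None of the 21 fell in either comparison. The median log2 change of the list was 0.48 after 1035 and 0.25 without it. Its median interaction was 0.16, beside 0.01 over all genes, with 14 of 21 above 0 and 2 called. Libraries matter here: without library 2 of the combination, 7 members rather than 13 rose after 1035. The difference between the 2 counts was not itself tested.

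Values follow for 3 members of the list that encode cytokines or a surface protein. LTB, a cytokine of the tumor necrosis factor family, was at 4.02 and 4.83 CPM with DMSO, 9.93 and 9.67 with 1035, 5.71 and 4.44 with doxorubicin, and 20.1 and 21.2 with the combination. The doxorubicin libraries overlapped those of DMSO, and the combination libraries were the highest. LTB rose by 1.08 after 1035, and its change without 1035 was 0.23 (edgeR adjusted p = 0.630). Its interaction of 0.85 ± 0.22 did not pass (edgeR adjusted p = 0.569). CD69, an early activation marker of lymphocytes, was at 7.78 and 8.995 CPM with DMSO, 23.2 and 22.3 with 1035, 12.5 and 10.9 with doxorubicin, and 45.8 and 41.0 with the combination. Here all groups were separate, and both drugs raised CD69 alone, with an interaction of 0.44 that did not pass (edgeR adjusted p = 0.952). TNF, the cytokine that itself activates NF-kB, was at 7.08 and 7.74 CPM with DMSO, 30.7 and 30.96 with 1035, 10.1 and 7.84 with doxorubicin, and 41.5 and 47.8 with the combination. TNF rose by 0.53 after 1035 and had a change of 0.30 without it (edgeR adjusted p = 0.357).

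Subunit genes and the other regulators had smaller interactions than NFKBIA, or wide intervals. NFKB2, the p100 subunit of the alternative pathway, was at 19.0 and 14.8 CPM with DMSO, 28.2 and 26.2 with 1035, 33.1 and 27.6 with doxorubicin, and 51.8 and 54.95 with the combination. NFKB2 rose by 0.85 with doxorubicin alone and by 0.97 after 1035, with an interaction of 0.11 ± 0.15. RELB, its partner subunit, rose by 0.77 and 1.01. NFKB1, the p105 subunit, fell by 0.64 with 1035 and rose by 0.26 with doxorubicin after 1035, against 0.03 without it (edgeR adjusted p = 0.863). BIRC3, an inhibitor of apoptosis, had 0.00 and 0.13 CPM with DMSO and 2.89 and 3.64 with the combination. Its interaction of -1.59 rests on those few reads, and the 95% interval ran from -4.02 to 0.85. CYLD and NFKBIZ, further regulators picked after their values were seen, had interactions of 0.07 and 0.28.

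**Figure D2:**
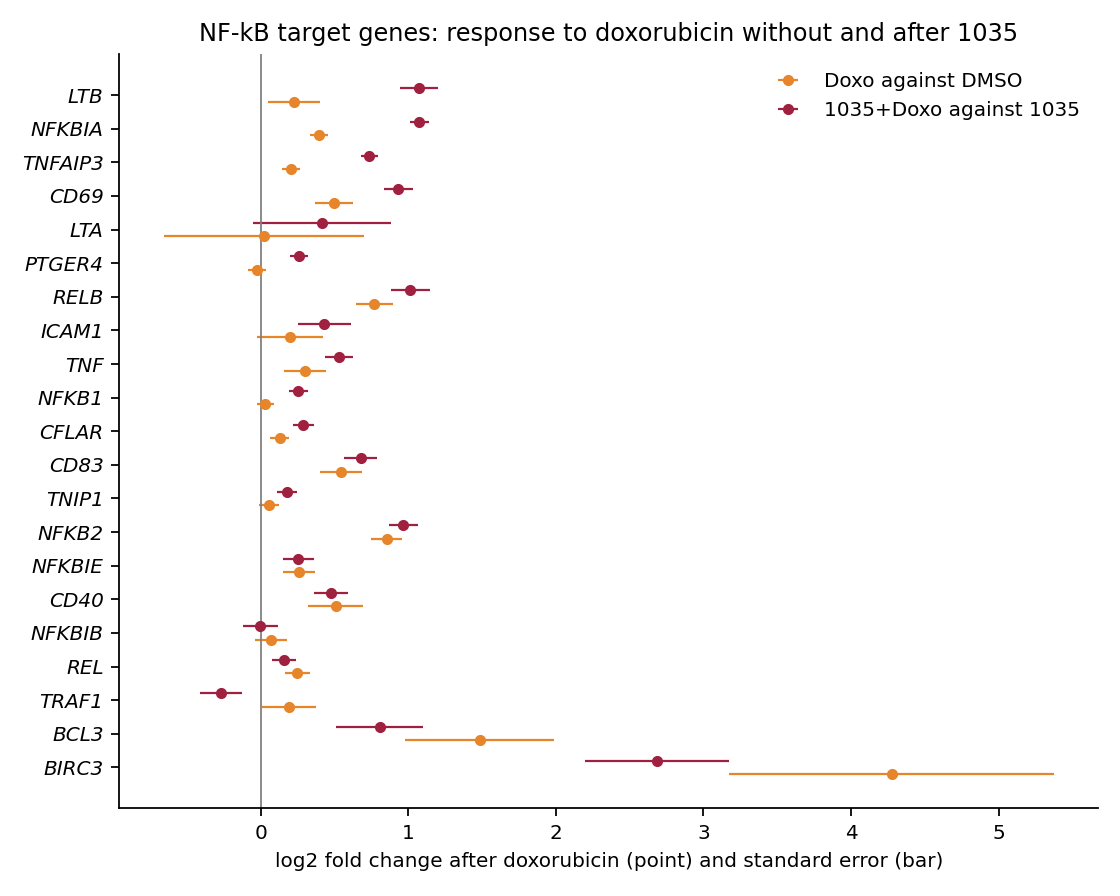
Response of the 21 NF-kB targets to doxorubicin (horizontal axis, log2 fold change; bars are standard errors) without 1035 (orange) and after 1035 (red), ordered by interaction. LTB, NFKBIA and TNFAIP3 lie at the top with the red point to the right, and BIRC3 at the bottom has the widest bars.

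Across the 57 genes that rose with doxorubicin after 1035, 40 had a promoter in the RefSeq table, and 12 of these (30.0%) held the kappaB consensus. Among the 128 that rose with doxorubicin alone, 15 of 88 promoters (17.0%) held it, beside 12.8% of the genes tested. The letters GGGACTTTCC were in 4 of the 40 promoters (10.0%), those of LTB, MIR3142HG, NFKB2 and TNFAIP3; MIR3142HG and TNFAIP3 had led to the choice of these letters. Of the 21 NF-kB targets tested, 17 had a promoter, and 9 of these (52.9%) held the consensus. TNF had 0 matches in the bases searched. No test was run on these shares.

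Targets of p53 responded to doxorubicin in both arms, and none of the 37 tested members of 42 was called in the interaction by edgeR. In Doxo against DMSO 19 rose, beside 0.784% of all genes, and in 1035+Doxo against 1035 18 rose, beside 0.349%. Of these, 15 rose in both, and 0 fell in either. The median interaction was 0.03, beside 0.01 over all genes. The 19 became 10 and 11 without library 1 or 2 of DMSO. At an unadjusted p under 0.05 there were 5 higher and 2 lower, together 18.9% of the 37, beside 4.82% of all genes.

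Among targets of cell cycle arrest and repair, CDKN1A, the p21 inhibitor of cyclin-dependent kinases, was at 193 and 186 CPM with DMSO, 228 and 237 with 1035, 289 and 273 with doxorubicin, and 355 and 352 with the combination. Each drug raised it, the groups did not overlap, and its interaction was 0.03 ± 0.08. MDM2, the ligase that degrades p53, had 2079.9 and 2084 CPM with DMSO, 1722 and 1658 with 1035, 2514 and 2337 with doxorubicin, and 2019.9 and 1917 with the combination. It fell with 1035 and rose with doxorubicin alone, its combination libraries lay below those of DMSO, and its interaction was -0.00 ± 0.08. DDB2, which recognises damaged DNA, fell by 0.78 with 1035 and rose by 0.50 with doxorubicin alone and 0.67 after 1035. RPS27L, a small ribosomal protein homologue, fell by 0.89 with 1035 and rose by 0.49 and 0.70.

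The targets with the smallest unadjusted p values in the interaction split by their response to 1035. AEN, an apoptosis-linked nuclease, was at 48.8 and 45.4 CPM with DMSO, 23.7 and 25.7 with 1035, 60.1 and 59.0 with doxorubicin, and 42.6 and 41.3 with the combination. The combination lay below DMSO, and doxorubicin raised AEN by 0.34 alone and 0.77 after 1035, with an interaction of 0.43 ± 0.12 (edgeR adjusted p = 0.569). RRM2B, PLK3, EDA2R and ZMAT3 were, like AEN, lower with 1035 and had interactions of 0.29, 0.37, 1.17 and 0.25. TNFRSF10B, a death receptor for TRAIL, and BTG2, an antiproliferative gene, were instead higher with 1035 and had interactions of -0.47 and -0.24. The edgeR adjusted p was 0.952 for these 6. TNFRSF10B had 7.08 and 6.48 CPM with DMSO, 17.7 and 16.7 with 1035, 12.1 and 13.0 with doxorubicin, and 22.0 and 23.8 with the combination, which was the highest group. The effect of 1035 without doxorubicin is itself a term of the interaction, so this split is a description. LINC01021, a long noncoding RNA picked after its values were seen, rose by 1.19 with doxorubicin alone and by 2.04 after 1035, and its interaction of 0.85 did not pass (edgeR adjusted p = 0.569).

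Most replication-dependent histone genes fell with each drug alone, and none was called in the interaction by edgeR. With 1035 alone 55 fell and 1 rose of 57 tested members of 59, where 24.8% of all genes fell and 24.2% rose. With doxorubicin 41 fell in Doxo against DMSO, where 89 of all genes (0.545%) fell, and 18 in 1035+Doxo against 1035, where 24 (0.147%) fell. The list's median change was -0.29 without and -0.23 after 1035. By edgeR 0 were called in the interaction, with 3 higher and 2 lower at an unadjusted p under 0.05. Their median interaction was 0.06, and 44 of 57 (77.2%) were above 0, beside 51.7% of all genes and 61.3% of the most abundant 5440. HIST1H2AB was at 269 and 245 CPM with DMSO, 97.9 and 102 with 1035, 193 and 179 with doxorubicin, and 74.3 and 71.6 with the combination. HIST1H2AB fell by 1.37 with 1035 and by 0.46 with doxorubicin alone, the groups did not overlap, and its interaction was 0.01 ± 0.09. HIST1H4A fell by 0.31 with doxorubicin alone and had a change of -0.05 after 1035 (edgeR adjusted p = 0.961). HIST2H2BF had a change of -0.12 alone (edgeR adjusted p = 0.430) and fell by 0.34 after 1035. Neither difference passed (0.26 and -0.22, edgeR adjusted p = 0.952). Histone genes are near-identical copies, and reads may be divided among them in a way the sources used here do not give. These counts depend on single libraries. The 41 became 3 without library 1 of DMSO, 21 without library 2 of DMSO and 23 without library 2 of Doxo. The 18 became 2 without library 2 of 1035, 5 and 1 without library 1 or 2 of the combination, 30 without library 1 of 1035, and 31 without either library of Doxo.

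**Figure D3:**
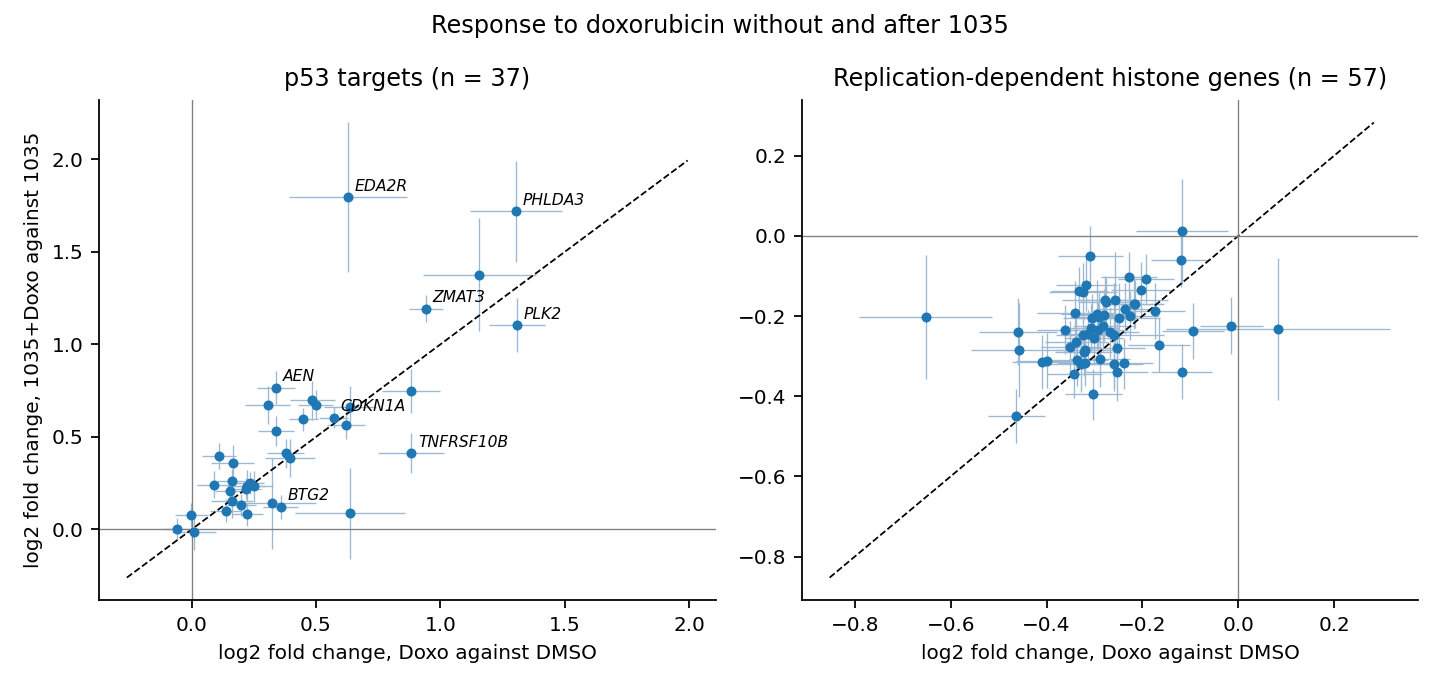
Response to doxorubicin without 1035 (horizontal axis) and after 1035 (vertical axis), as log2 fold changes with standard errors, of 37 p53 targets and 57 replication-dependent histone genes; the dashed line marks equal responses. The p53 targets lie in the upper right around the line, with AEN and EDA2R above it and TNFRSF10B below it, and most histone genes lie in the lower left.

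Additive responses were sought among the genes that both single drugs changed. There were 164 such genes. An additive gene was one whose interaction was not called and whose 95% interval lay within 1.5-fold in either direction, and 131 met this. For 31 the interval was wider, 1 was NFKBIA, and 1, TLE6, had no reads in DMSO and no interval. The single effects were called in 49.0% of all genes for 1035 and 1.33% for doxorubicin, so the number rests mainly on the second. With an interval within 0.32 on the log2 scale, in place of 0.585, 61 genes were additive. Without library 1 or 2 of DMSO there were 12 and 34, without library 1 or 2 of the combination 67 and 66, and without library 1 or 2 of Doxo 506 and 61.

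Both drugs lowered 77 of the additive genes, 41 of them histone genes. All 77 were lower in the combination than in DMSO, where 4023 of all genes (24.7%) were lower. The 77 were chosen by called falls against the same DMSO libraries and by a bounded interaction. Their lower level in the combination was therefore largely fixed by the choice and is a description. The median log2 change of the 77 with doxorubicin was -0.30 without 1035, where they were chosen, and -0.19 after it. After 1035, 18 of the 77 were called lower with doxorubicin, beside 0.147% of all genes. Others in this group were CCNE2, a cyclin of the entry into S phase, MCM2, a subunit of the replicative helicase, SLBP, which binds histone messages, and HSP90B1, a chaperone of the endoplasmic reticulum. HIST1H3H was at 471 and 430 CPM with DMSO, 269.96 and 298 with 1035, 359 and 294 with doxorubicin, and 247 and 234 with the combination. HIST1H4K fell by 0.61 with 1035 and by 0.46 with doxorubicin.

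Both drugs raised 38 of the additive genes, all of them higher in the combination than in DMSO, where 3999 of all genes (24.5%, and 49.2% in either direction) were higher. The median interaction of these 38 was -0.21, with a median log2 change of 0.71 in the combination against 0.88 for the sum. Their median change with doxorubicin was 0.35 without 1035 and 0.14 after it, where 6 of the 38 were called higher. They were chosen by called rises with each single drug against the same DMSO libraries and by a bounded interaction. That all 38 were higher in the combination was therefore largely fixed by the choice, and the medians are a description. JUN, an AP-1 subunit, was at 4.78 and 3.44 CPM with DMSO, 8.42 and 10.1 with 1035, 7.16 and 6.46 with doxorubicin, and 15.6 and 16.8 with the combination. JUN rose by 1.16 with 1035 and by 0.73 with doxorubicin, its groups did not overlap, and its interaction was 0.08 ± 0.23. CD83, a surface protein of activated lymphocytes, was at 8.10 and 5.95, 16.6 and 15.0, 10.2 and 10.4, and 25.3 and 25.4 CPM in the same order. CD83 rose by 1.17 and by 0.55, with an interaction of 0.13 ± 0.18. The positive interactions of JUN and CD83 differ in sign from the median of the set. CDKN1A, BTG2, NFKB2 and HIPK2, a kinase that phosphorylates p53, were in this group too.

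The drugs opposed each other in 16 additive genes. In 14, 1035 lowered and doxorubicin raised the level, and 9 of these were p53 targets. Against DMSO, 3 of the 14 were higher in the combination, 3 lower and 8 not called. PLK2, a polo-like kinase and p53 target, was at 11.8 and 13.3 CPM with DMSO, 6.77 and 7.56 with 1035, 34.0 and 27.5 with doxorubicin, and 16.0 and 14.7 with the combination. The combination stood between DMSO and doxorubicin. BAX, a pore-forming executor of apoptosis, was at 66.9 and 64.8, 42.7 and 47.8, 88.7 and 77.4, and 63.8 and 66.9 CPM in the same order, so that combination and DMSO libraries overlapped. The other direction held 2 genes, XBP1, a transcription factor of the unfolded protein response, and SNORD3A, a small nucleolar RNA. XBP1 rose by 0.47 with 1035 and fell by 0.23 with doxorubicin.

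**Figure D4:**
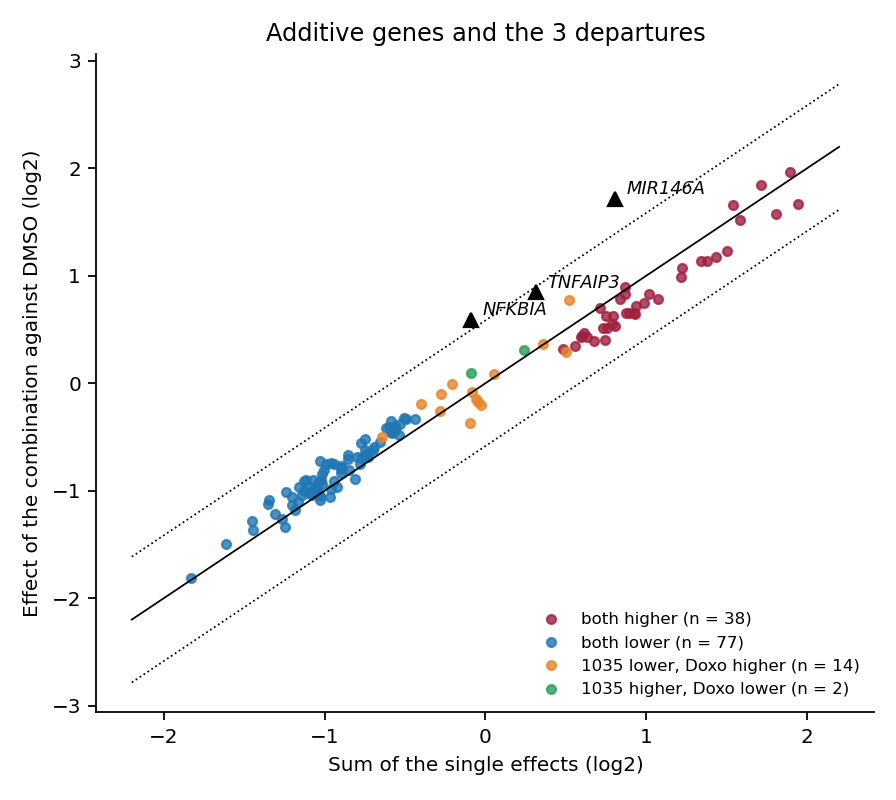
Sum of the single log2 effects (horizontal axis) and log2 effect of the combination against DMSO (vertical axis) for the 131 additive genes, coloured by direction, and the 3 genes called in the interaction (triangles). The solid line is equality and the dotted lines are 1.5-fold departures; both axes use the DMSO libraries, so their agreement is no independent result.

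No gene changed in opposite directions with doxorubicin in the 2 arms with both changes called. With 1035 there were 3. NFKBIA is described above. MVB12B, an endosomal sorting subunit, rose by 0.37 with 1035 and fell by 0.34 with 1035 in the presence of doxorubicin. HSP90AB2P, a pseudogene whose reads may come from its parent family, rose by 0.47 and fell by 0.66. Their interactions of -0.71 and -1.12 did not pass (edgeR adjusted p = 0.582 and 0.517).

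The responses to doxorubicin with and without 1035 shared part of their calls. Of the 128 genes that rose without 1035, 32 (25.0%) also rose after 1035, which is 56.1% of the 57 called there. Without a call, the sign was still the same in 120 of the 128, and of the 89 that fell, 87 were negative after 1035 and 18 called. The median change of the 128 was 0.42 where they were chosen and 0.16 after 1035. Of the 57 chosen after 1035 it was 0.67, and 0.39 without 1035. Genes chosen in a comparison tend to have larger values there than elsewhere. Over all 16320 genes, most of them not called, Pearson's r between the log2 changes with doxorubicin in the 2 arms was -0.447. It was 0.22 over the 12074 genes whose normalised counts averaged 50 or more, and 0.0982 over all genes tested without library 2 of 1035 and of Doxo. These values are across genes, which are not independent replicates, and the agreement in sign above is over called genes alone. The counts depend on single libraries: the 128 ranged from 28 without library 1 of DMSO to 634 without library 1 of Doxo, and the 57 from 29 without library 2 of the combination to 87 without either library of Doxo. The 2 arms of 1035 also share no library. Of 3944 genes that 1035 raised without doxorubicin (24.2% of those tested), 3023 (76.6%) were among the 3559 (21.8%) it raised with doxorubicin, 84.9% of these, and of 4049 lowered (24.8%), 3135 (77.4%) were among 3596 (22.0%), 87.2% of these.

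Most genes of cell death, like most of all genes, were not called with doxorubicin. Of 18 BCL2 family genes, 2 rose and 0 fell in each arm by edgeR. Of 27 death receptor and caspase genes, 3 rose and 0 fell in each arm. Among all genes, 0.784% rose and 0.545% fell without 1035, and 0.349% and 0.147% after it. With 1035 alone 6 and 8 rose and 2 and 8 fell, where 24.2% of all genes rose and 24.8% fell. BBC3, the BH3-only protein PUMA, was at 10.5 and 10.4 CPM with DMSO, 11.4 and 11.4 with 1035, 20.6 and 17.6 with doxorubicin, and 19.5 and 18.8 with the combination. The libraries with doxorubicin were higher whether or not 1035 had been given, and the interaction was -0.13 ± 0.17. BMF, another BH3-only gene, had 66.1 and 67.4, 259 and 247, 76.0 and 77.7, and 243 and 252 CPM in that order. It followed 1035, which raised BMF by 1.92 without and 1.69 with doxorubicin, and its interaction of -0.24 did not pass (edgeR adjusted p = 0.952). BCL2L2 had an interaction of 0.33 ± 0.12, which did not pass either (edgeR adjusted p = 0.952). None of 18 genes of the BCL2 family and none of 27 death receptor and caspase genes was called in the interaction by edgeR. At an unadjusted p under 0.05 there were 2 (11.1%) and 1 (3.7%), beside 4.82% of all genes.

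Apart from NF-kB targets, none of the other 26 gene lists had a member called in the interaction by edgeR. Genes of the G1/S transition and DNA replication had 40 of 46 members above 0 and a median of 0.08, beside 61.3% above 0 among the most abundant 5440 genes. At an unadjusted p under 0.05, 8 of the 46 were higher and 0 lower (17.4%, beside 4.82% of all genes). PCNA, the sliding clamp of DNA polymerase, was at 512 and 527 CPM with DMSO, 367 and 372 with 1035, 488 and 473 with doxorubicin, and 407 and 406 with the combination. The groups did not overlap, and its interaction of 0.25 ± 0.08 did not pass (edgeR adjusted p = 0.952). The checkpoint and repair list had 42 of 52 above 0 (median 0.08), ribosomal proteins 46 of 57 (0.07) and NRF2 targets 19 of 21 (0.11). Interferon response genes (44), B-lineage genes (37) and histone deacetylases with their complexes (38) had medians of -0.04, -0.04 and -0.04. Among outputs of BCR-ABL1 and STAT5, the kinase gene PIM2 rose by 0.63 after 1035, against 0.17 without it (edgeR adjusted p = 0.529), and its interaction of 0.46 did not pass (edgeR adjusted p = 0.952).

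On the linear scale, where the expected level is the sum of the single changes in CPM rather than in log2, edgeR's fitted levels gave 5 genes higher (0.0306%) and 1 lower (0.00613%). Besides the 3 genes above, CD69 exceeded the sum by 17.3 CPM and LTB by 10.1 CPM, and PLK2 was 10.3 CPM short of it. The log2 interaction of PLK2 was -0.21 ± 0.18, so its departure depends on the scale on which effects are added.

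The precision of the interaction rose with abundance. The libraries held 11760542 to 18144670 reads on the genes shared by all tables. The 95% interval of the interaction lay within 1.5-fold for 9992 genes (61.2%), and for 1.49%, 83.5% and 98.7% of the least abundant, middle and most abundant 5440 genes. Below a mean of 6.78 CPM the interval thus mostly reached beyond 1.5-fold. An interval within 1.5-fold does not measure what the FDR test could call. Above that level, departures over 1.5-fold could still fail to pass. LTB (10.0 CPM on average, 0.85) and CTC-524C5.2 (19.2 CPM, 0.77) both had an edgeR adjusted p of 0.569. The cell line's B-lineage markers were present, among them PAX5 (235 CPM on average), EBF1 (354) and DNTT (718). Markers of other lineages summed to 60.4 to 86.1 CPM per library for myeloid, 99.1 to 133 for T and NK, 53.6 to 142 for stromal and 285 to 448 for erythroid cells. The stromal sum was 53.6 to 57.4 CPM with DMSO and 127 to 142 with 1035, where all 4 tested members of 11 rose, and its part in the results was not tested. The erythroid sum was mostly TFRC, the transferrin receptor, which proliferating cells of many types express, with 434 and 425 CPM with DMSO and 272 and 272 with the combination. By edgeR 0 of these markers were called in the interaction, with 1 myeloid and 1 stromal gene at an unadjusted p under 0.05.

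Libraries 2 of 1035 and of Doxo had more mitochondrially encoded RNA than their partners in sum, but not in every gene. Its share of reads was 0.159% and 0.143% with DMSO and 0.206% and 0.247% with 1035. It was 0.162% and 0.253% with doxorubicin, and 0.202% and 0.183% with the combination. MT-CO1 went the other way with 1035, at 462 and 420 CPM. MT-ND6, a subunit of respiratory complex I, had 473 and 447 reads with DMSO, 355 and 2316 with 1035, 440 and 1067 with doxorubicin, and 391 and 228 with the combination. All 15 mitochondrial genes had a negative interaction, with a median of -0.90, and 0 were called by edgeR (0 at an unadjusted p under 0.05). Without libraries 2 of 1035 and of Doxo the median was -0.0063, and it was -0.38 without that of Doxo alone. Both groups enter the interaction with a minus sign, and the omitted libraries had the higher mitochondrial share. The upward shift was therefore largely fixed by the choice of libraries and is a description. NFKBIA, TNFAIP3 and MIR146A remained called without these 2 libraries, at 0.68, 0.50 and 0.75. NEAT1 (-0.42, edgeR adjusted p = 4.24e-04), MT-CO1 (-0.37, edgeR adjusted p = 0.00267) and RNU2-59P (0.39, edgeR adjusted p = 0.00202) were then called as well, against -0.17, -0.59 and 0.33 with all 8 libraries. Leaving out library 1 of Doxo had the largest effect on the count, with 64 genes called higher and 175 lower, and the 3 genes above were among them. Leaving out library 2 of DMSO left 1, NFKBIA.

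**Figure D5:**
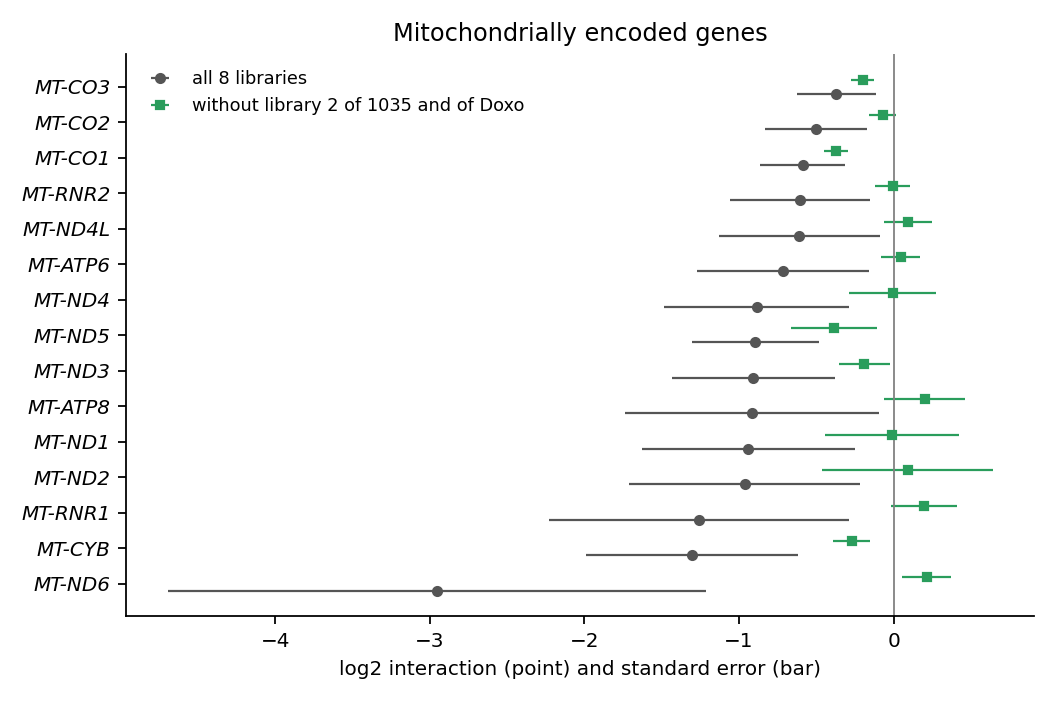
Log2 interaction (horizontal axis; bars are standard errors) of the 15 mitochondrially encoded genes with all 8 libraries (grey) and without library 2 of 1035 and of Doxo (green). Grey points are all below 0, with a median of -0.90, and green points lie on both sides of 0. The omitted libraries had the higher mitochondrial share in their groups, so the upward shift was largely fixed by the choice.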

How the data were processed

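Total RNA of 8 SupB15 libraries, 2 per treatment, was analysed. Per the labels' protocols, RNA was taken with a Versagene kit, depleted of ribosomal RNA with Ribo-Zero Gold, made into stranded TruSeq libraries and read as single reads. Per the submitters' processing notes, hg19, Novoalign 2.08.01 and DESeq2 1.4.5 were used. Read counter, strand setting and annotation: not given in the sources used here. For this reason overlapping and antisense genes are uncertain. What the authors deposited were 4 tables, each comparing 2 groups, with raw counts per gene and library, which alone were used here. The deposited FPKM values, log2 fold changes and adjusted p-values of the authors were not used.

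The tables were joined by gene identifier. Of 17849 genes, 16608 had counts in all 8 libraries, all 132880 counts held by 2 tables were equal, and the 1241 genes left out made up 1.02% or less of each library. Genes were filtered with filterByExpr (288 removed), scaled by TMM, and modelled in edgeR 4.0.16 (R 4.3.3) by robust quasi-likelihood with 1 mean for each of 4 groups. Residual degrees of freedom numbered 4, and edgeR's common biological variation was 4.57%. Intervals are at 95%. The spread is that between 2 samples, pooled over groups. The test was also run on counts simulated from its own fitted means and dispersions. Changes were planted only in genes with a mean count of at least 50. Such a run cannot show how far single libraries sway the calls.

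The gene lists, comparisons and named genes were chosen with earlier results of these data known. Named were the called genes with the largest changes and at least 1 CPM on average, additive genes with the largest smaller single effect, the called or, failing those, the 2 smallest p-values of each list, and turned responses. Other genes described, among them LTB, CD69, TNF and BBC3, fell outside these rules and were picked with the data seen. Alternatives were DESeq2 1.42.0 and its size factors, edgeR's likelihood ratio test, no filter, a mean normalised count of at least 50, a replicate block, each library left out, 2 libraries left out together, a linear scale, an additive interval of 0.32 on the log2 scale and an FDR of 0.01. Their use on the counts for doxorubicin and on mitochondrial genes was chosen after seeing the data.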

Additional observations from a re-analysis of the deposited data

Results flagged for a closer look

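The response to doxorubicin differed with and without 1035, by the interaction test itself, for 3 genes. The log2 interaction was 0.68 for NFKBIA, 0.532 for TNFAIP3 and 0.912 for MIR146A, the host gene of miR-146a. In each, both libraries of the combination lay above all 6 others. The genes were called for an upward interaction in these same libraries, so this order is a description.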

How the results depend on the processing

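Over the 68 named genes, 1081 gene values under alternatives gave 1058 on the same side of the threshold, 7 that lost and 16 that gained a call, and 0 reversed calls. Of the 1058, 15 were uncalled values with the other sign. Only the 3 called genes could lose a call, and the 7 losses were all of TNFAIP3 and MIR146A. Most of the 1058 were uncalled genes that stayed uncalled, so this total does not measure how stable the calls are. NFKBIA was called under every alternative run. Replicate numbers are not stated to pair the samples. Same-numbered deviations between groups correlated by -0.0816 to 0.0804 over 12067 genes, which cannot exclude a pairing that touches few genes. The replicate block gave 12 genes called lower in the interaction, where 0 were, and 13 less than additive, where 0 were. Of its 16 calls, 12 had interactions over 5 on the log2 scale in size. The likelihood ratio test gave 3 lower and 3 less than additive. Without library 2 of 1035 and of Doxo there were 2 lower, 2 less than additive, 2 with no called sum against 1, and 9 rather than 18 histone genes lower after 1035. The linear scale gave 5 higher and 1 lower, and the additive interval of 0.32 on the log2 scale gave 61 additive genes.

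Leaving out 1 library gave 1 to 64 interactions higher, 0 to 175 lower, 0 to 9 genes more than additive, 0 to 182 less than additive, 0 to 23 opposed, 1 to 25 with no called sum and 12 to 506 additive. After doxorubicin without 1035, 28 to 634 genes were higher, 5 to 546 lower, 4 to 8 NF-kB targets and 10 to 21 p53 targets higher, and 3 to 47 histone genes lower. After 1035 the ranges were 29 to 87 higher, 1 to 56 lower, 7 to 13, 12 to 24, and 1 to 31. The lone library of a group was then assumed to vary like the other groups; the cause of these shifts was not tested. The median mitochondrial interaction was -0.90, and -0.0063 without library 2 of 1035 and of Doxo, a shift largely fixed by the choice of these libraries.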
